A study of Mus musculus with 11 samples.

Results

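Integrins and laminins, the receptors and a main ligand of cell adhesion to basement membrane, were read in 4 compartments of the fetal mouse kidney and ureter. On the Affymetrix Mouse Genome 430 2.0 array 34 genes carried the symbol of an integrin alpha subunit (16 genes), an integrin beta subunit (8) or a laminin chain (10), among 18193 genes with a probe set of a single symbol. The rule that picks the 34 uses gene symbols, and each was read from its probe set with the highest mean.

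The animals were wild-type CD-1 mice, an outbred stock, at E15.5 (Theiler stage 23) and of unknown sex, with no treatment and no altered allele in any group. Laser capture of frozen sections gave 11 samples: cortical collecting duct (CCD, n = 2), the early proximal tubule (EPT, n = 3), the smooth muscle of the ureter (USM, n = 3) and the urothelium that lines it (URO, n = 3). Each sample pooled about 50 sections of 5 kidneys, and its RNA was amplified in 2 rounds before 1 array was hybridised. The stated aim was a profile of each kidney element, so a compartment was compared with the average of the remaining 3 ("the others") and pair by pair. Whether pools came from separate animals is not stated, and p-values here measure only how pools vary, which can be technical. In captured tissue, fewer cells of a type and less RNA per cell cannot be told apart.

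Integrins are pairs of 1 alpha and 1 beta subunit that bind matrix outside the cell and are linked to actin inside it by talin, kindlin and the complex of integrin-linked kinase, PINCH and parvin. Laminins are cross-shaped trimers of 1 alpha, 1 beta and 1 gamma chain that form the sheet on which epithelia and muscle rest. The alpha chain carries the main integrin-binding part. In the developing kidney and ureter, tubules, ducts and muscle cells each build and contact such a sheet.

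Values are log2(signal + 55) of the authors' scaled intensities, where 55 keeps dim probe sets from dominating and makes their differences smaller than on the raw scale. Levels of different genes come from different probe sets and are not compared. Median log2 signal per array was 8.24 to 8.83. Of the 11 arrays, 10 were most similar to an array of their own compartment. Marker sums here and below are the log2 of the summed signals of a list, so the brightest markers weigh most. Summed markers of each labelled compartment were highest in its own arrays, at 16.20 to 16.23 for collecting duct, 16.94 to 17.61 for proximal tubule, 17.78 to 18.12 for smooth muscle and 15.17 to 16.66 for urothelium. Upk1a and Psca of the urothelium list were not highest there, with means of 7.72 and 6.49 against 8.09 and 6.55 in muscle. Foxa1, the brightest of that list, had means of 15.25 in urothelium and 13.24 in collecting duct. All 8 smooth muscle markers were measured. Their sum was 15.96, 15.26 and 13.38 in urothelium replicates 1 to 3 against 11.50 to 12.64 in the 5 kidney arrays. Acta2 alone measured 15.56, 14.82 and 13.09 in those urothelium replicates. A date-like part of the labels splits the arrays into 4 label batches whose meaning is not stated, and urothelium shares none with collecting duct or proximal tubule. The 3′ to 5′ signal ratio of Gapdh, a sign of RNA length, was 6.79 to 55.3 and highest in urothelium replicate 2, and its part in the results was not tested.

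Of the 34 genes, 25 were tested, because their probe set exceeded the array's median signal in at least 2 arrays. In 15 of the 34 genes it did so in all 11 arrays. By a single limma fit over 13614 genes, 14 of the 25 differed among compartments (moderated F, adjusted p under 0.05), against 20.1% of all genes tested. The same 14 were also called in at least 1 compartment against the others, at an adjusted p under 0.05 and a log2 fold change of at least 1 (24.6% of all genes tested). These were 6 of 10 tested alpha subunits, 2 of 5 tested beta subunits, 5 of 5 laminin alpha chains, 1 of 3 beta chains and 0 of 2 gamma chains. Neither gamma chain reached an unadjusted p under 0.05 by the F test. Itgb3 and Lamb3 passed the filter only through the muscle and the urothelium arrays, so their difference is partly a condition of having been tested. With label batch as a block the F test called 10 of the 14 and no other, losing Itga3, Itga9, Lama3 and Lama4. Over all 13614 genes the F test with the block called 1322.

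**Figure D1:**
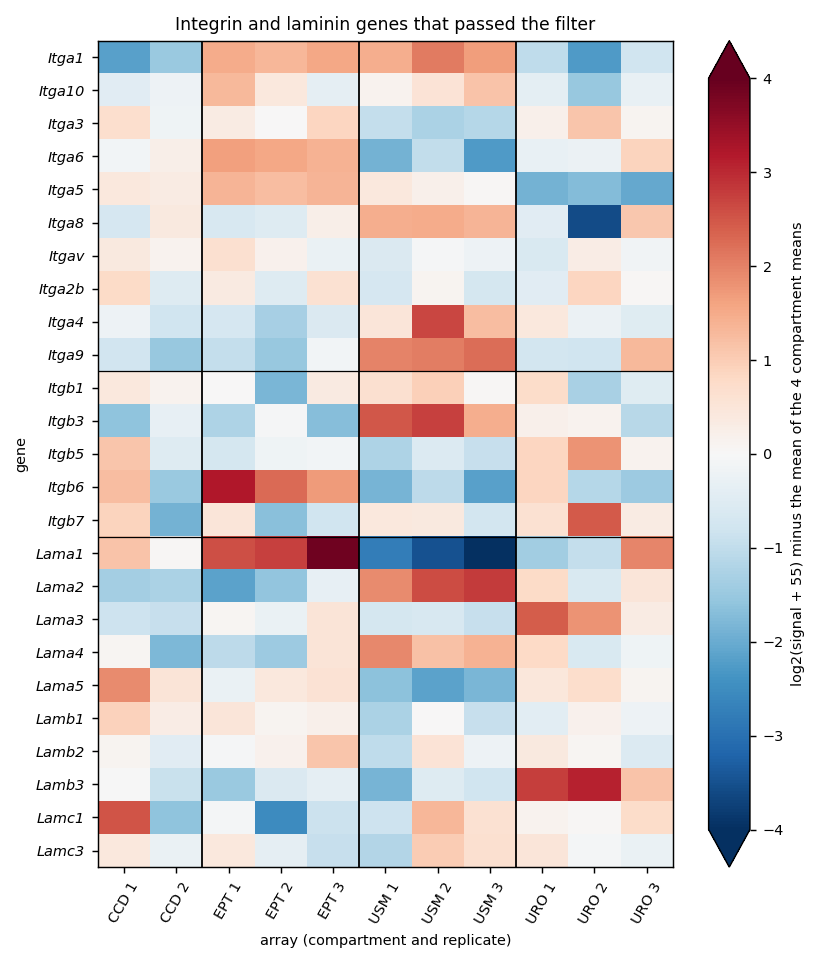
Log2(signal + 55) of the 25 tested genes (rows: alpha subunits, beta subunits, laminin chains) in the 11 arrays (columns), each minus the mean of the gene's 4 compartment means. Smooth muscle arrays are low in Itga6, Lama1 and Lama5 and high in Itga9, Itgb3 and Lama2, and urothelium arrays are high in Lamb3.

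Among the collagen-binding subunits, Itga1 was high in proximal tubule and smooth muscle and low in both duct-type epithelia. Its log2 signals were 12.87, 12.72 and 12.92 in proximal tubule, 12.83, 13.45 and 13.03 in muscle, 10.36, 9.10 and 10.58 in urothelium and 9.21 and 9.88 in collecting duct. By this probe set no array of the first pair of compartments overlapped with the second pair. Itga1 was lower in collecting duct than in proximal tubule, with a log2 fold change of -3.29 ± 0.49 (SE, limma adjusted p = 0.0013) and higher in muscle than in urothelium by 3.09 ± 0.43 (limma adjusted p = 0.000705). Proximal tubule minus muscle was -0.27 ± 0.43 and collecting duct minus urothelium -0.47 ± 0.49, neither past the threshold. With label batch as a block the contrast of proximal tubule with collecting duct (-3.25 ± 0.53 for collecting duct minus proximal tubule, adjusted p = 0.00741) and that of muscle with urothelium (adjusted p = 0.0128) stayed called. Its calls for collecting duct, proximal tubule and urothelium against the others did not (limma adjusted p = 0.157, 0.256 and 0.85). The collecting duct call (-2.44 ± 0.42) was also lost without collecting duct replicate 1 or 2 (limma adjusted p = 0.196 and 0.0708), and with the mean of the passing probe sets (-1.57, limma adjusted p = 0.126). The urothelium call (-1.81 ± 0.36) was lost without collecting duct replicate 2 and without urothelium replicate 1 or 2 (limma adjusted p = 0.051, 0.0534 and 0.131).

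Itga10, a cartilage collagen receptor subunit, ranged from 7.28 to 10.07 over the 11 arrays and was not called. Itga2, the other collagen-binding subunit, was below the array median in all 11 arrays, at 7.14 to 8.83.

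The laminin-binding subunits Itga6 and Itga3 were both lowest in smooth muscle by the probe set used for each. Itga6 measured 15.33, 15.22 and 15.08 in proximal tubule, 13.59 and 13.93 in collecting duct, 13.38, 13.46 and 14.57 in urothelium and 11.81, 12.69 and 11.44 in muscle. Proximal tubule lay above and muscle below every other array. The difference from the other compartments was 2.03 ± 0.37 for proximal tubule (SE, n = 3 against 8, limma adjusted p = 0.00197) and -2.28 ± 0.37 for muscle (limma adjusted p = 0.000828). Collecting duct minus urothelium, the middle pair in the order, was -0.04 ± 0.49 and not called. With label batch as a block the muscle call stayed (limma adjusted p = 0.0368) and the proximal tubule call did not (limma adjusted p = 0.253). Within the batch that holds both, proximal tubule exceeded muscle by 2.64.

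Itga3, which with Itgb1 anchors kidney epithelia to laminin, was dim in muscle at 9.18, 8.89 and 8.99. It measured 10.80 and 9.98 in collecting duct, 10.46, 10.15 and 11 in proximal tubule and 10.35, 11.27 and 10.25 in urothelium. All 3 muscle arrays lay below all 8 epithelial arrays, and the difference was -1.50 ± 0.35 (limma adjusted p = 0.00932). Among the 3 epithelia the arrays overlapped, and no pair of them was called. The muscle call was lost with label batch as a block (limma adjusted p = 0.0699) and with the mean of the gene's passing probe sets (-0.67, limma adjusted p = 0.195). The other passing Itga3 probe set did not follow the one used (r = -0.08 over the 11 arrays). Its means were 8.75 in proximal tubule, 7.56 in muscle, 7.035 in collecting duct and 6.42 in urothelium, so muscle was not lowest by it. Itga7, the laminin receptor subunit of mature muscle, was below the array median in all 11 arrays, at 5.97 to 8.01, muscle included.

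Of the subunits that bind the RGD motif of fibronectin and related ligands, Itga8 was high in muscle with little spread. Its log2 signals were 13.77, 13.79 and 13.66 in muscle, 11.62 and 12.68 in collecting duct, 11.67, 11.78 and 12.54 in proximal tubule and 11.85, 8.72 and 13.36 in urothelium. The muscle arrays lay above the other 8, but urothelium was widely spread, and the difference of 1.92 ± 0.70 was not called (limma adjusted p = 0.0875). Without urothelium replicate 3, the urothelium array nearest to muscle, it was 2.26 ± 0.55 (limma adjusted p = 0.0132). Averaged over its 2 probe sets it was 2.04 ± 0.59 (limma adjusted p = 0.0305). The other alternatives are not given for Itga8, so these values do not make it a call.

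Itgav, the alpha partner of several beta subunits, was bright in every array (14.86 to 16.10). Its compartment means were 15.72 ± 0.18 (SD, n = 2) in collecting duct, 15.64 ± 0.45 (n = 3) in proximal tubule, 15.18 ± 0.27 in muscle and 15.31 ± 0.45 in urothelium. No comparison of Itgav was called, and muscle minus the others was -0.38 ± 0.33. Itga2b, the platelet fibrinogen receptor subunit, ranged from 8.97 to 10.51 and was not called. The log2 of the summed signal of 6 measured megakaryocyte and erythroid markers ran from 9.47 to 11.88 over the same arrays. Its part in the Itga2b level was not tested.

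Itga5, the fibronectin receptor subunit, gave a result that rests on its probe set. The one used measured 9.44, 9.32 and 9.44 in proximal tubule, 8.50 and 8.40 in collecting duct, 8.52, 8.29 and 8.13 in muscle and 6.19, 6.34 and 6.05 in urothelium. Urothelium was lower than the others by this probe set (-2.53 ± 0.28, limma adjusted p = 0.000425) and proximal tubule higher (1.75 ± 0.28, limma adjusted p = 0.000791). Another probe set of Itga5 measured 7.87, 8.50 and 6.58 in urothelium and 6.71, 6.29 and 6.44 in proximal tubule, with proximal tubule below the other compartments in place of above them. It was the only 1 of the 73 probe sets of the 34 genes to oppose the chosen one in a compartment by at least 1 log2 unit on both sides. With the mean of the passing probe sets neither Itga5 call remained (limma adjusted p = 0.219 and 0.898), nor with label batch as a block (0.23 and 0.0749 by limma).

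**Figure D2:**
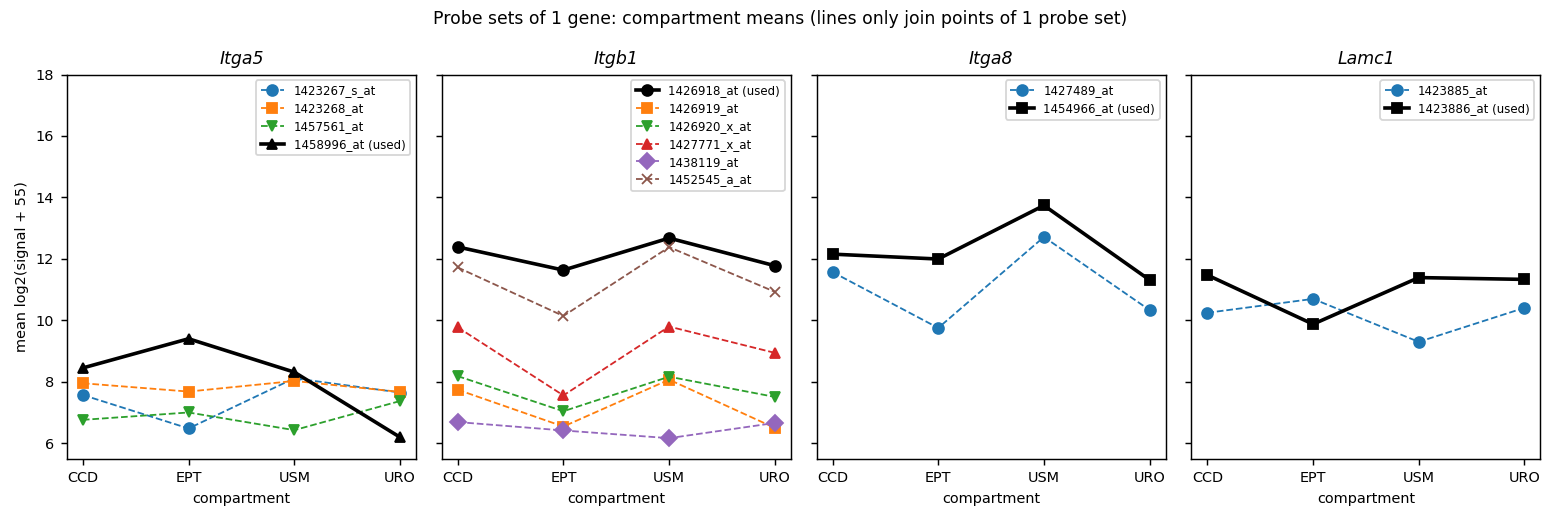
Compartment means of log2(signal + 55) for every probe set of Itga5, Itgb1, Itga8 and Lamc1, the used one in black. The used Itga5 probe set falls to 6.19 in urothelium while the other 3 do not, and 5 of the 6 Itgb1 probe sets have a lower mean in proximal tubule than in collecting duct and muscle.

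Itga9 and Itga4, related alpha subunits that bind tenascin, osteopontin and vascular cell adhesion molecule, were highest in muscle. Itga9 measured 13.14, 13.20 and 13.40 in muscle, 10.43, 10.35 and 12.45 in urothelium, 10.22, 9.64 and 11.06 in proximal tubule and 10.40 and 9.64 in collecting duct. Muscle lay above every other array, by 2.78 ± 0.47 against the others (limma adjusted p = 0.00109), a call kept in all 21 alternatives. Urothelium replicate 3 was the highest epithelial array for Itga9.

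Itga4 measured 9.99, 12.20 and 10.74 in muscle, 9.92, 9.29 and 9.02 in urothelium, 9.29 and 8.72 in collecting duct and 8.84, 8.18 and 8.93 in proximal tubule. The muscle arrays were widely spread, the lowest just above the highest urothelium array. Muscle minus the others was 1.95 ± 0.44 (limma adjusted p = 0.00774), and 1.34 without muscle replicate 2 (limma adjusted p = 0.0525). In the batch that holds both compartments with 1 array each, muscle exceeded urothelium by 0.07, and in the other by 1.59.

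The leukocyte integrins were dim throughout. Itgal, Itgam, Itgax and their beta partner Itgb2, which serve white blood cell adhesion, ranged from 6.04 to 8.46 and were not tested. Itgae, the subunit of lymphocytes within epithelia, ranged from 6.24 to 8.14 and was not tested either. The 10 measured leukocyte markers summed to 12.39 and 13.22 in collecting duct, 11.81 to 13.14 in proximal tubule, 11.23 to 11.53 in muscle and 11.61 to 12.45 in urothelium. The markers did not share 1 order of compartments. Ptprc had means of 6.65 in muscle, 11.80 in collecting duct, 7.55 in proximal tubule and 8.58 in urothelium. Tyrobp had means of 7.16, 7.53, 8.29 and 7.98 in the same order, and Csf1r of 9.185, 9.45, 10.81 and 10.18. The part of leukocytes in the integrin levels was not tested. Itgb7, a leukocyte beta subunit, exceeded the median in 7 arrays with 9.06, 10.88 and 8.76 in urothelium and 9.34 and 6.55 in collecting duct, and was not called.

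Itgb1, the common beta subunit that pairs with most of these alpha subunits, was measured by 6 probe sets. The brightest gave means of 12.68 ± 0.46 in muscle, 12.39 ± 0.20 in collecting duct, 11.78 ± 1.02 in urothelium and 11.63 ± 1.18 in proximal tubule and was not called in any comparison. Proximal tubule replicate 2 and urothelium replicate 2 were the lowest arrays, at 10.29 and 10.83, and the rest lay between 11.64 and 13.08. With its passing probe sets averaged, Itgb1 was lower in proximal tubule than in the others, with a log2 fold change of -1.26 ± 0.36 (limma adjusted p = 0.0315). The brightest probe set alone gave -0.65 ± 0.51.

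Itgb3, the beta subunit of the vitronectin receptor, was above the array median only in muscle. It measured 10.40, 10.65 and 9.35 in muscle, 8.11, 8.04 and 6.80 in urothelium, 6.67, 7.84 and 6.19 in proximal tubule and 6.29 and 7.57 in collecting duct. The muscle arrays lay above all others, by 2.97 ± 0.47 (limma adjusted p = 0.000728), or 2.97 with no filter (limma adjusted p = 0.000949). The other 3 compartments differed from each other by at most 0.75 in their means and no pair of them was called. Its second probe set was below the array median in all 11 arrays.

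Itgb6, an epithelial beta subunit that with Itgav activates latent TGF-beta, was highest in proximal tubule. Its log2 signals were 12.53, 11.58 and 11.03 in proximal tubule, 10.56 and 7.82 in collecting duct, 10.17, 8.17 and 7.85 in urothelium and 7.47, 8.26 and 7.15 in muscle. Proximal tubule lay above all other arrays, by 3.20 ± 0.61 (limma adjusted p = 0.00295), and this call was kept with label batch as a block (3.53, limma adjusted p = 0.0207). The 2 collecting duct arrays lay far apart, so the place of that compartment in the order is not settled. Muscle was lower than the others (log2 fold change -2.25 ± 0.61, limma adjusted p = 0.0232), but not without muscle replicate 1 (0.0875) or replicate 3 (0.106). Its other probe set had the same order at its ends, with means of 9.29 in proximal tubule and 6.07 in muscle.

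Itgb5, another partner of Itgav, had its highest mean in urothelium and its lowest in muscle. It measured 13.16, 14.12 and 12.44 in urothelium, 13.43 and 11.80 in collecting duct, 11.60, 12.13 and 12.19 in proximal tubule and 11.07, 11.76 and 11.39 in muscle. Only the pair of muscle and urothelium was called (-1.84 ± 0.51 for muscle minus urothelium, limma adjusted p = 0.0427), and not with label batch as a block (limma adjusted p = 0.112). The within-batch differences were -1.89 and -2.10. Its probe set is of a type that may cross-hybridise, but its 3 other probe sets correlated with it at 0.88 to 0.92 over the 11 arrays.

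Itgb4, the hemidesmosome partner of Itga6, was not tested because it exceeded the array median in none of the 11 arrays. Its values were 7.48, 8.17 and 7.53 in urothelium, above the 6.32 to 6.95 of the other 8 arrays. With no filter the urothelium difference was 1.18 ± 0.30 and not called (limma adjusted p = 0.0782). Itgb8, the remaining partner of Itgav, exceeded the median in 1 array. With no filter it was higher in proximal tubule by 1.39 ± 0.38 (limma adjusted p = 0.0322), from 7.70, 8.99 and 7.45 there.

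**Figure D3:**
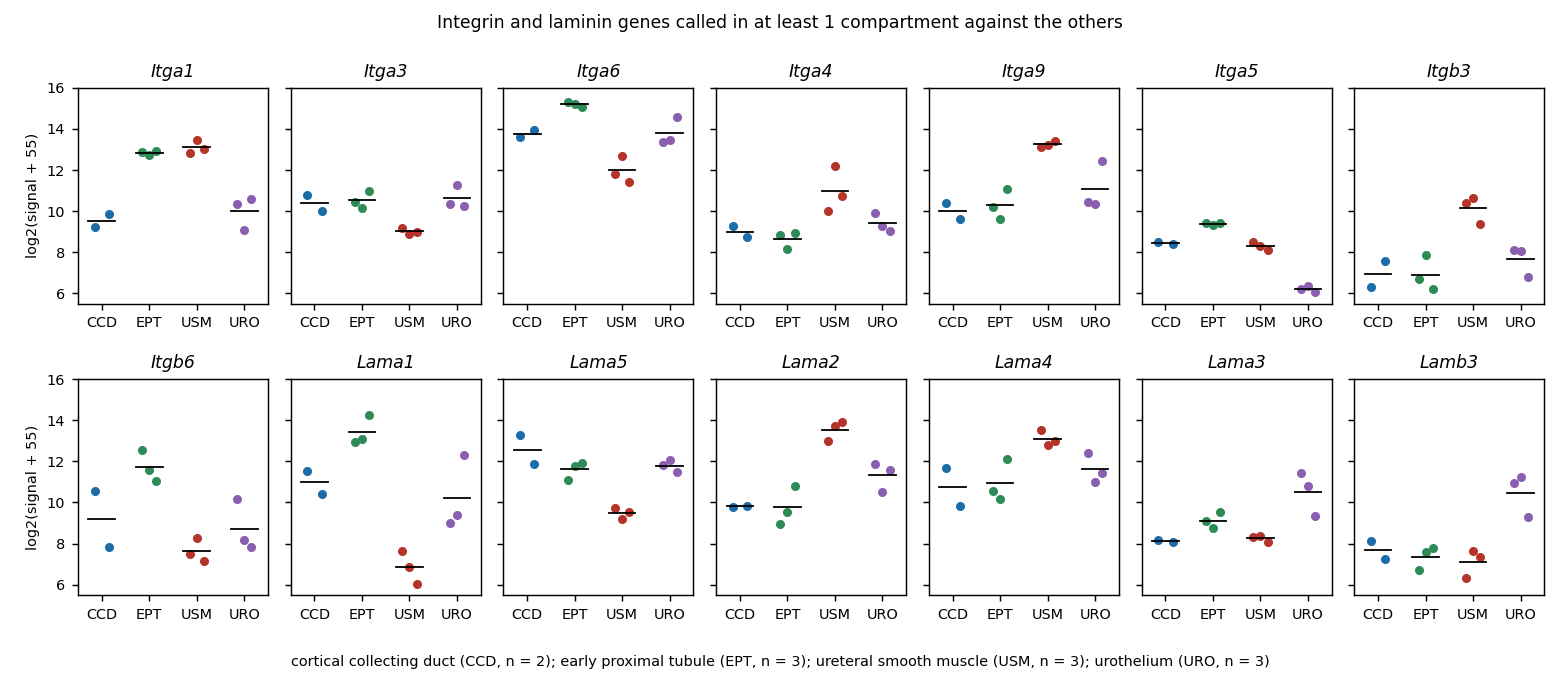
Log2(signal + 55) of the 14 called genes, a point for each array and a bar for the compartment mean, in collecting duct (CCD, n = 2), proximal tubule (EPT, n = 3), smooth muscle (USM, n = 3) and urothelium (URO, n = 3). Lama1 runs from a mean of 13.44 in proximal tubule to 6.84 in muscle, the widest span among the 14, and Lama2 runs the other way.

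All 5 laminin alpha chains were called, but not in the same compartments. Lama1, the alpha chain of early embryonic and tubular basement membranes, measured 12.96, 13.10 and 14.26 in proximal tubule, 11.51 and 10.43 in collecting duct, 8.99, 9.40 and 12.33 in urothelium and 7.62, 6.88 and 6.01 in muscle. Proximal tubule was above and muscle below every other array. The 2 differed by 6.60 ± 0.76 (limma adjusted p = 4.77e-05), with 6.08 in the batch that holds both. Against the others, muscle differed by -4.71 ± 0.63 (limma adjusted p = 0.000223), a call kept in all 21 alternatives. Its size ran from -5.54 to -3.66 over them. Lama1 was dim in muscle, below the array medians of 8.29, 8.51 and 8.46. Proximal tubule was higher than the others by 4.09 ± 0.63 (limma adjusted p = 0.000679, and 0.0901 with label batch as a block). Urothelium replicate 3 stood far above the other urothelium arrays. Its summed markers of the nephron progenitor and renal vesicle were 14.64 against 14.21 and 13.74 in urothelium replicates 1 and 2, those of podocytes 13.39 against 12.04 and 11.17, and those of collecting duct 15.38 against 14.32 and 15.11. Those of proximal tubule were 13.20 against 13.54 and 11.34. Lhx1, of the first list, was 11.55 there against 6.04 and 6.001, and Calb1, of the collecting duct list, was 14.35 against 10.44 and 7.12. Other markers of these lists were lowest in that replicate. Osr1, of the first list, was 6.17 against 7.49 and 7.96. In the collecting duct list Gata3 was 12.71 against 13.38 and 14.65, and Scnn1g was 12.40 against 12.56 and 12.82. The part of these markers in the Lama1 level was not tested.

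Lama5, the alpha chain of mature epithelial basement membranes, was low in muscle. It measured 9.72, 9.21 and 9.54 in muscle, 13.26 and 11.87 in collecting duct, 11.10, 11.78 and 11.94 in proximal tubule and 11.82, 12.07 and 11.47 in urothelium. Muscle lay below all 8 epithelial arrays, with a difference of -2.49 ± 0.36 (limma adjusted p = 0.000381) that stayed called in all 21 alternatives. Its other passing probe set correlated with it at 0.90 over the 11 arrays. No pair of epithelia was called for Lama5. Collecting duct minus proximal tubule, the widest of these 3 differences, was 0.96 ± 0.48.

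Lama2, the alpha chain of muscle basement membranes, was highest in smooth muscle. It measured 13.003, 13.73 and 13.90 in muscle, 11.87, 10.50 and 11.60 in urothelium, 9.76 and 9.85 in collecting duct and 8.96, 9.54 and 10.79 in proximal tubule. Muscle lay above every other array, by 3.25 ± 0.43 (limma adjusted p = 0.000204), and was called in all 21 alternatives. Urothelium came second in the order, at 11.32 ± 0.73 (SD, n = 3) against 9.80 ± 0.06 (n = 2) in collecting duct and 9.76 ± 0.94 (n = 3) in proximal tubule, but its difference from neither was called. The summed smooth muscle markers were also higher in urothelium than in the kidney arrays, and their part in that second place was not tested. Proximal tubule was lower than the others by the Lama2 probe set (-1.79 ± 0.43, limma adjusted p = 0.0123), but not with label batch as a block (0.126) or without proximal tubule replicate 1 (0.0784) or 2 (0.0684).

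Lama4, the alpha chain of vessels and mesenchyme, followed Lama2 with a smaller margin. It measured 13.53, 12.79 and 13.01 in muscle, 12.41, 10.99 and 11.43 in urothelium, 10.56, 10.15 and 12.14 in proximal tubule and 11.69 and 9.82 in collecting duct. Muscle lay above the other arrays, by 2.00 ± 0.51 (limma adjusted p = 0.0156), and the call was lost with label batch as a block (0.206) and without muscle replicate 1 (0.0828). The 8 endothelial markers summed to 12.50 to 13.16 in muscle and 11.45 to 12.97 in the other arrays, and their part in the Lama4 level was not tested. The 8 interstitium and mesenchyme markers, all of them tested, summed to 18.82 to 19.11 in muscle, 16.24 to 17.19 in urothelium and 15.22 to 16.48 in the kidney arrays. Col3a1, the brightest of them, measured 17.42 to 18.245 in muscle. Lum measured 15.72, 16.08 and 15.66 in muscle and 7.89 to 12.87 in the other arrays. Foxd1 went another way, with means of 9.73 in muscle, 10.29 in proximal tubule, 10.095 in collecting duct and 9.61 in urothelium. The part of these 8 markers in the Lama4 level was not tested. Nor was their part in the other members higher in muscle (Itga1, Itga4, Itga9, Itgb3 and Lama2).

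Lama3 and Lamb3, 2 chains of the laminin that anchors stratified epithelia through hemidesmosomes, were highest in urothelium. Lamb3 measured 10.92, 11.23 and 9.29 in urothelium, 8.15 and 7.25 in collecting duct, 6.69, 7.58 and 7.79 in proximal tubule and 6.31, 7.65 and 7.35 in muscle. Urothelium lay above all 8 other arrays, by 3.10 ± 0.47 (limma adjusted p = 0.00364). With label batch as a block this was 3.80 (limma adjusted p = 0.298), a fit in which no gene at all was called for urothelium against the others. Urothelium against muscle, which share 2 batches, stayed called with the block (muscle minus urothelium -3.64 ± 0.69, limma adjusted p = 0.0153), with within-batch differences of -2.91 and -4.62. The Lamb3 probe set, its only 1, is of the type that matches several transcripts.

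Lama3 measured 11.44, 10.78 and 9.32 in urothelium, 9.08, 8.75 and 9.53 in proximal tubule, 8.30, 8.37 and 8.07 in muscle and 8.18 and 8.07 in collecting duct. Urothelium replicate 3 was below the highest proximal tubule array, so the groups overlapped. Urothelium minus the others was 2.02 ± 0.41 (limma adjusted p = 0.0209). That call was lost with label batch as a block (0.5), without collecting duct replicate 2 (0.0501) and without urothelium replicate 1 (0.127) or 2 (0.123). Muscle minus urothelium stayed called with the block (-2.48 ± 0.55, limma adjusted p = 0.0314). Its other probe set was below the median in all 11 arrays. Urothelium replicate 3 was lowest for both chains, and its summed urothelial markers were also the lowest of the 3 (15.17 against 16.63 and 16.66).

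The chains shared by most laminin trimers varied less clearly. Lamb1, the common beta chain, was bright throughout, with means of 16.04 ± 0.45 (SD, n = 2) in collecting duct, 15.69 ± 0.19 (n = 3) in proximal tubule, 15.29 ± 0.29 in urothelium and 14.71 ± 0.66 in muscle. Muscle minus the others was -0.96 ± 0.34 (limma adjusted p = 0.0786). With the gene's 4 probe sets averaged it was -1.52 ± 0.35 and called (limma adjusted p = 0.00908). Lamb2, the alternative beta chain of muscle and glomerulus, ranged from 8.49 to 10.63 and was not called.

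Lamc1, the common gamma chain, measured 13.54 and 9.41 in collecting duct, 10.94, 8.51 and 10.17 in proximal tubule, 10.19, 12.34 and 11.64 in muscle and 11.16, 11.07 and 11.76 in urothelium. The 2 collecting duct arrays were the highest and among the lowest of all 11, and no comparison of Lamc1 was called. Its other probe set had a correlation of 0.10 with it over the 11 arrays, so Lamc1 gave no usable order of compartments. Lamc3, a gamma chain of nerve and retina, ranged from 7.38 to 9.55 by the probe set used and was not called. The other passing Lamc3 probe set correlated with the one used at 0.26. Muscle minus the others was 1.36 by it and 0.21 by the one used.

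Sequence upstream of the start was looked at for members with opposite patterns, using RefSeq promoter windows (GRCm38.p6) cut to the 250 bases before each annotated start. With member windows on 1 chromosome skipped, 22 of the 34 genes had a window, 25 windows in all. That skip was not applied to the 32851 windows of all genes. On both strands 7 motifs were searched. Shown are Lama2, highest in muscle, Lama5, lowest in muscle, Itgb6, highest in proximal tubule, and Lamb3, highest in urothelium, the last 2 at 1 of their 2 annotated starts. Each is written 5′ to 3′ on the gene's strand, with capitals for matches to the CArG box of serum response factor, the GC box (GGGCGG), the TEAD site (GGAATG), the AP-1 site (TGANTCA) or the TATA box (TATAAA).
Lama2, chr10:27616943-27617192, - strand: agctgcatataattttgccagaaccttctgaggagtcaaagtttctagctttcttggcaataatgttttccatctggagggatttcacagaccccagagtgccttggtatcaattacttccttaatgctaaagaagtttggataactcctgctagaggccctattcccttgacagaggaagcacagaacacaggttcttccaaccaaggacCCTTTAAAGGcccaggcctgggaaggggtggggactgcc
Lama5, chr2:180225860-180226109, - strand: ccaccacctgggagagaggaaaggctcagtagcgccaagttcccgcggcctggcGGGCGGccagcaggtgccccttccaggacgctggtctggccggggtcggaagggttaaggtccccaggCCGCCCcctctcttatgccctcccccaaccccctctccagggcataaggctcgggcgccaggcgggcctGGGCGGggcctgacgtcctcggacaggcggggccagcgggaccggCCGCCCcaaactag
Itgb6, chr2:60673694-60673943, - strand: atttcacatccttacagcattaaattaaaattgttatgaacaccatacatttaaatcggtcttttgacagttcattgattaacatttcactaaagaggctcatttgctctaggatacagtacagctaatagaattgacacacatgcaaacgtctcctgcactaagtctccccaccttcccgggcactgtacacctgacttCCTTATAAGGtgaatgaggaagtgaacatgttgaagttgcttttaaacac
Lamb3, chr1:193301993-193302242, + strand: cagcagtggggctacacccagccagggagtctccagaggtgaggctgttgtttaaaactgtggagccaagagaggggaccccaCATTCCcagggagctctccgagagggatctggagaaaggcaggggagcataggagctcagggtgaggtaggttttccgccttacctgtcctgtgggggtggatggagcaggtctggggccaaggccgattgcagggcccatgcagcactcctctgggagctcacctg
The Lama2 window held 1 CArG box, which begins 39 bases before the start. A CArG box was found in 2 of the 25 windows, that of Lama2 and that of Itgb6, which was not high in muscle, and in 1.47% of all 32851 windows. The Lama5 window held 4 GC boxes, the most of the 25, and a GC box was present in 9 of them and in 32.7% of all windows. The Lamb3 window held 1 TEAD site, found in 3 of the 25 and in 12.6% of all windows. The other Lamb3 window held no TEAD site and the other Itgb6 window no CArG box, so the windows shown are the ones with a match. AP-1 sites were in 1 of the 25 windows (6.75% of all), and GATA sites (AGATAA) and HNF1 half-sites (GTTAAT) each in 1 (9.99% and 6.43%). The TATA box was in none of the 25 and in 12.4% of all windows. These matches describe letters in these windows only.

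**Figure D4:**
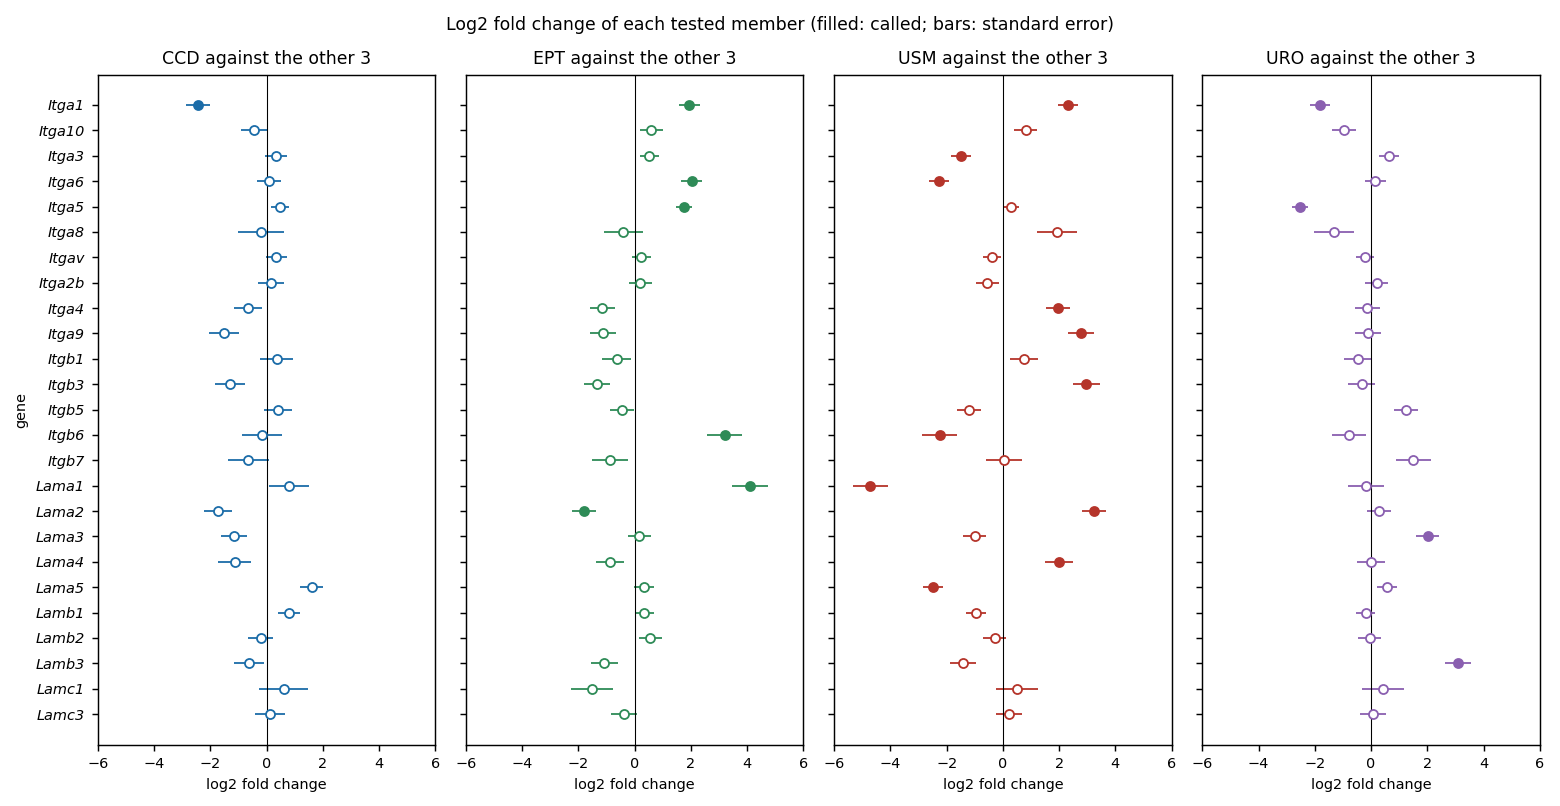
Log2 fold change of each compartment against the mean of the other 3 for the 25 tested genes, with standard errors, filled where called. Smooth muscle has 11 filled points, 6 higher and 5 lower, and collecting duct 1.

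By compartment, smooth muscle had the most called members. In muscle 6 of the 25 tested were higher (Itga1, Itga4, Itga9, Itgb3, Lama2 and Lama4), 5 were lower (Itga3, Itga6, Itgb6, Lama1 and Lama5) and 14 were not called. Of all genes 15.2% were called in muscle, 6.05% higher and 9.12% lower. The median of the 25 was 0.03 and that of all genes -0.07. Proximal tubule had 5 higher (Itga1, Itga5, Itga6, Itgb6 and Lama1), 1 lower (Lama2) and 19 not called, against 9.53% of all genes higher and 6.41% lower (15.9% in all). Urothelium had 2 higher (Lama3 and Lamb3), 2 lower (Itga1 and Itga5) and 21 not called, against 1.65% higher and 0.713% lower (2.37% in all). Collecting duct had 1 lower (Itga1) and none higher, with 1 higher and 5 lower at an unadjusted p under 0.05 by limma. All genes gave 1.42% higher and 0.624% lower there (2.04% in all).

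The arrays of muscle lay wholly above the others in 6 members and wholly below in 4, against 5.21% and 5.13% of all genes. Those of proximal tubule lay above in 4 and below in none (8.47% and 4% of all genes), those of urothelium above in 1 and below in 1 (2.17% and 0.757%), and those of collecting duct in none either way (2.73% and 2.72%). With label batch as a block the counts of members called were 9 in muscle, 1 in proximal tubule and none in the other 2. Of all 13614 genes that fit called 951 in muscle, 406 in proximal tubule, 3 in collecting duct and 0 in urothelium. In the same fit 3 members in urothelium and 5 in collecting duct had an unadjusted p under 0.05, a count not taken over all genes.

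The pairs of compartments gave 15 members called at least once, against 27.2% of all genes. Muscle differed from urothelium in 12 of 25 (7.96% of all genes), from proximal tubule in 11 (20.4%) and from collecting duct in 8 (8.27%). Among the epithelia, proximal tubule differed from urothelium in 5 (11.5%), and from collecting duct in 1, Itga1 (5.84%). Collecting duct and urothelium, which both derive from the ureteric bud, differed in 1, Itga5 (0.257%), by the probe set that the gene's other probe sets did not bear out.

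Members followed each other across the 11 arrays in groups, given here as a description since arrays of 1 compartment share their tissue. The 14 called genes were picked for differing among these compartments, so that choice favours a large r of either sign. Values of r over all genes were not taken. Itga6 and Lama1 had the highest Pearson r of all pairs of the 14 called genes, 0.95. Itga9 followed Lama2 (0.91), Itga3 followed Lama5 (0.88), Lama2 followed Lama4 (0.86) and Lama3 followed Lamb3 (0.85). The Itga3 value rests on the probe set used, which the gene's other passing probe set did not follow (r = -0.08). The most opposed pair was Itgb3 and Lama1 (-0.87).

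The proteins that couple integrins to actin were read from a list of 37 adhesion complex genes, 33 of them tested. In muscle 9 were higher and none lower by limma (13 higher and 2 lower at an unadjusted p under 0.05), against 6.05% of all genes called higher, and the list median was 0.61 against -0.07 for all genes. Kindlin-2 (Fermt2), which activates integrins together with talin, measured 16.17, 16.003 and 16.07 in muscle and 13.13 to 14.27 in the other arrays. The muscle arrays lay above all others, by 2.29 ± 0.32 (limma adjusted p = 0.000324). Tgfb1i1 (Hic-5), a paxillin relative, was higher by 2.76 ± 0.33, Rsu1, which binds PINCH-1, by 1.44 ± 0.30, and alpha-actinin-1 (Actn1), which crosslinks actin, by 1.57 ± 0.33. These 4 had the largest moderated t. The remaining 5 were Lims1, Parva, Ilk, Vcl and Fblim1, named after their values were seen. They include the genes of integrin-linked kinase (Ilk, 1.11 ± 0.31), PINCH-1 (Lims1, 2.36 ± 0.50) and alpha-parvin (Parva, 1.87 ± 0.47).

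In proximal tubule 5 of the 33 adhesion complex genes were lower and none higher by limma (1 higher and 6 lower at an unadjusted p under 0.05), led by the tetraspanin Cd9 (-1.94 ± 0.33), against 9.53% of all genes higher and 6.41% lower. In urothelium Cd9 (1.73 ± 0.33) and Hspb1 (1.69 ± 0.37) were higher and the leukocyte kindlin Fermt3 was lower (-1.71 ± 0.36), against 1.65% of all genes higher and 0.713% lower. In collecting duct none was called by limma (1 higher and 3 lower at an unadjusted p under 0.05), against 2.04% of all genes. With label batch as a block 0 of 13614 genes were called in urothelium against the others and 3 in collecting duct. No urothelium call of this list or of the lists below was therefore kept with the block. The other alternatives are not given for list genes.

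Integrin ligands other than laminins had 26 of 29 listed genes tested. In muscle 11 were higher and 2 lower, in proximal tubule 2 and 6, in urothelium 2 and none, and in collecting duct 2 and none (2 lower at an unadjusted p under 0.05 by limma, and 3 in urothelium). The shares of all genes called higher and lower were 6.05% and 9.12% in muscle, 9.53% and 6.41% in proximal tubule, 1.65% and 0.713% in urothelium and 1.42% and 0.624% in collecting duct. Nephronectin (Npnt), the ligand of the Itga8 integrin, was high in the kidney tubules. It measured 15.92 and 15.60 in collecting duct, 15.55, 15.89 and 14.52 in proximal tubule, 13.94, 12.87 and 13.80 in urothelium and 12.47, 12.88 and 12.33 in muscle, where Itga8 had its highest arrays. Npnt was higher in collecting duct than in the others by 1.96 ± 0.43 (limma adjusted p = 0.0313). E-cadherin (Cdh1), the ligand of the Itgae integrin, was lower in muscle (-4.74 ± 0.37) and higher in urothelium (2.82 ± 0.37) and collecting duct (2.14 ± 0.43). The urothelium call of Cdh1 was lost with label batch as a block. The collagen genes Col1a1 (2.92 ± 0.40) and Col3a1 (2.11 ± 0.33) and periostin (Postn, 2.68 ± 0.40) were higher in muscle. Postn was lower in proximal tubule (-2.85 ± 0.40), as were the TGF-beta genes Tgfb2 (-2.77 ± 0.56) and Tgfb3 (-2.49 ± 0.54). Vcam1, a ligand of the Itga4 integrins named after its value was seen, was higher in proximal tubule (3.53 ± 0.85, limma adjusted p = 0.0123). Itga4 was not called there. By the Itga4 probe set used, proximal tubule had a mean of 8.65 against 9.01 in collecting duct, and the arrays of these compartments overlapped.

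Other basement membrane genes had 21 of 23 listed genes tested. In muscle 4 were higher and 7 lower, in proximal tubule 4 and 2, in collecting duct 1 and 1, and none in urothelium by limma (0 higher and 2 lower at an unadjusted p under 0.05). All genes gave 6.05% higher and 9.12% lower in muscle, and 9.53% and 6.41% in proximal tubule. In collecting duct the shares were 1.42% and 0.624%, and in urothelium 1.65% and 0.713%. Tinag, an antigen of tubular basement membrane, measured 14.34, 14.22 and 13.74 in proximal tubule, 6.52, 6.53 and 6.80 in muscle, 9.44, 10.49 and 11.22 in urothelium and 10.28 and 10.75 in collecting duct. Proximal tubule lay above and muscle below every other array, as for Lama1. Tinag was higher in proximal tubule by 4.93 ± 0.37 (limma adjusted p = 5.22e-06) and differed by -5.05 ± 0.37 in muscle (limma adjusted p = 4.25e-06). Frem2, of the Fraser complex that links epithelium to the matrix beneath it, was lower in muscle (-3.14 ± 0.35), as was Col18a1 (-2.50 ± 0.35), while Smoc1 was higher (3.05 ± 0.41). Agrin (Agrn, 1.86 ± 0.34) and netrin-4 (Ntn4, 2.60 ± 0.55), which bind laminin, were higher in proximal tubule.

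Of 13 listed genes of other laminin receptors and the hemidesmosome 11 were tested, and 2 were higher and 1 lower in muscle (6.05% and 9.12% of all genes) and 1 higher and 2 lower in proximal tubule (9.53% and 6.41%). Dystroglycan (Dag1), which binds laminin apart from integrins, was lower in muscle (-1.40 ± 0.28, limma adjusted p = 0.00361) and higher in proximal tubule (1.22 ± 0.28, limma adjusted p = 0.00936). The sarcoglycans Sgce (1.34 ± 0.38) and Sgcb (1.64 ± 0.48), of the same complex in muscle, were higher in smooth muscle. Syndecan-1 (Sdc1) was higher in urothelium (1.99 ± 0.45, limma adjusted p = 0.0357), the 1 call of this list there (2.37% of all genes). The Sdc1 call was lost with label batch as a block. In collecting duct none of the 11 was called by limma, and none had an unadjusted p under 0.05.

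**Figure D5:**
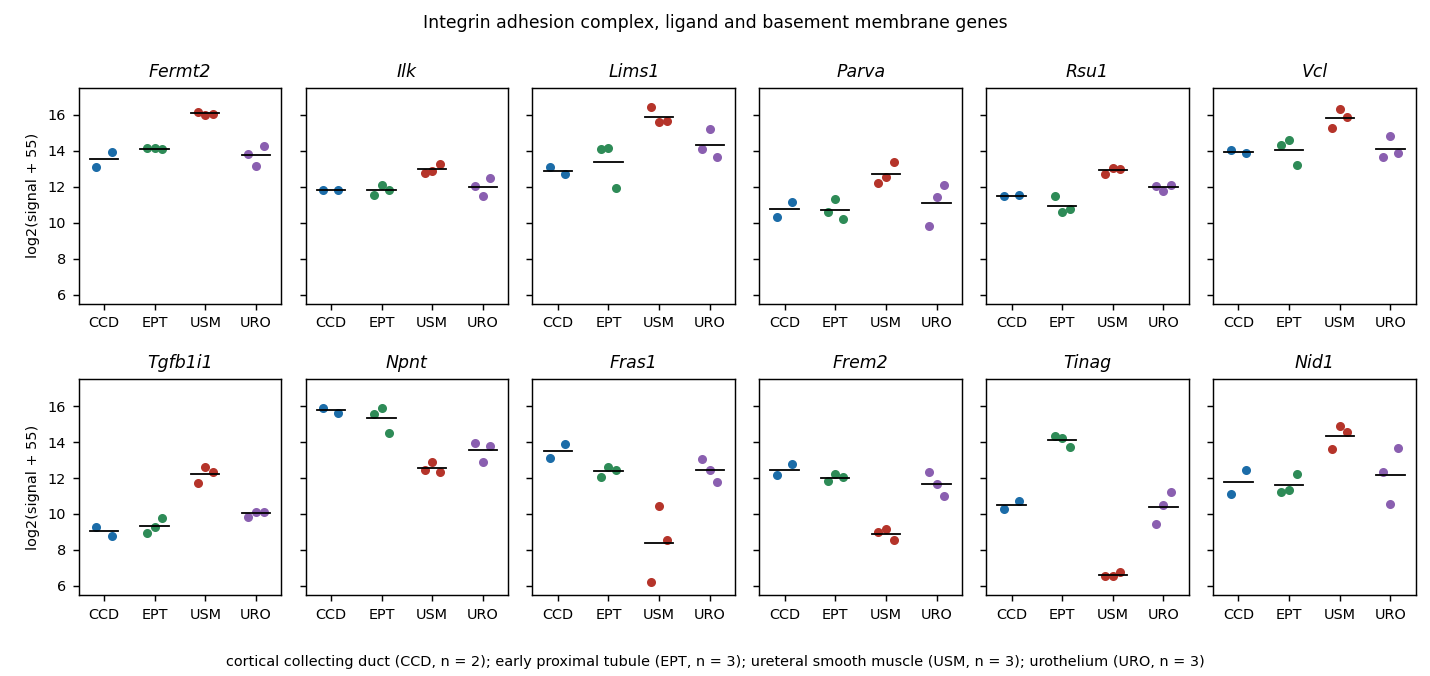
Log2(signal + 55) of 12 genes that couple integrins to actin, bind them or share the basement membrane with laminin, a point for each array and a bar for the compartment mean. Fermt2, Ilk, Lims1, Parva and Rsu1 are highest in the 3 muscle arrays, Fras1, Frem2 and Tinag are lowest there, and Npnt is highest in collecting duct and proximal tubule.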

How the data were processed

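The authors deposited intensity values on a linear scale for 45101 Affymetrix probe sets per array, with GCOS named as the software in the submitters' processing notes and no version given. In the deposited values every array has the same mean, 1500, once the top and bottom 2% are trimmed, and this scaling was kept. Detection calls were not used, and precision is bounded by the small number of arrays. A pseudocount of 55, close to the 20th percentile of all values, was added before log2. Probe sets with 1 gene symbol were kept where they exceeded the array median in at least 2 arrays, and a gene was read from its brightest (13614 genes). The fit was made in limma 3.58.1 under R 4.3.3, with a mean for every compartment, 7 residual and 6.38 prior degrees of freedom, and Benjamini-Hochberg adjustment over all genes in each comparison. Members, gene lists, marker lists and tests were chosen with earlier results of these data known. Every member is named, those called against the others with all arrays, and from each other list up to 4 called genes of largest moderated t, with exceptions marked. Settings varied were normalization (quantile), pseudocount (12, 190), low-signal filter (none, 75th percentile), probe sets (averaged, or without types x, s and a), eBayes options (trend, robust), label batch (fixed, random) and each array left out. The procedure was tested on simulated data. Figures used Python 3.11.15, pandas 2.3.3 and matplotlib 3.10.9.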

Additional observations from a re-analysis of the deposited data

How the results depend on the processing

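No called value reversed its sign under the 21 alternatives run (10 with all arrays and 11 with 1 left out). The 22 calls of members against the others were all kept under quantile normalization, both pseudocounts, no filter, trend and robust options and the random block. Label batch as a fixed block lost 12 of the 22, and averaging the passing probe sets lost 4. Without the x, s and a probe sets Lama3 and Lamb3 could not be tested, and at the 75th percentile filter Itga5 could not.

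The collecting duct count of 1 became 3 at a pseudocount of 190, 2 at the 75th percentile filter and 2 with trend and robust options. It became 0 with averaged probe sets and 0 with the fixed block, and leaving out arrays gave 0 to 1. The proximal tubule count of 6 fell to 1 with the fixed block. The urothelium count of 4 became 2 without x, s and a probe sets and 0 with the fixed block, and leaving out arrays gave 2 to 4. The cause of these shifts was not tested. No paired analysis was possible because the replicate numbers used here only name the samples. Arrays of different compartments are tied only through label batch, which was fitted as a block.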
